A study of Mus musculus with 6 samples.

Results

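The interferon-inducible GTPases described here are 10 of the 55414 genes in the deposited table, chosen by symbol from the Mx, guanylate-binding (GBP) and immunity-related GTPase (IRG) families. They are Mx1, Mx2, Gbp2, Gbp3, Gbp7, Irgm1, Irgm2, Igtp, Iigp1 and Ifi47, and each matched 1 Ensembl identifier. RNA was sequenced from TM4, a single cell line derived from mouse testis and used as a Sertoli cell model, in 3 control libraries and 3 libraries of a group called VC. The labels name no agent for the control group, and for the other group they name vitamin C in the series title and valine in a sample characteristic, so that group is called VC throughout. No dose, exposure time or genotype other than that of the line was given, and nothing says that replicates came from separate cultures, so the p-values measure only the spread between these 6 samples.

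Interferons, made by cells that sense infection, bind receptors that activate Jak kinases and STAT transcription factors, and the GTPases are among the genes switched on in answer. Mx proteins assemble on viral particles, while GBP and IRG proteins gather on the vacuoles in which bacteria and parasites live inside a cell and help to break them open. In the IRG family Irgm1, Irgm2 and Igtp are regulators that sit on the cell's own membranes and hold the effector IRG proteins, such as Iigp1 and Ifi47, inactive there. In the testis, Sertoli cells line the tubules and take part in the defence of germ cells against microbes.

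Depth was even, with 20405829 to 22312897 reads per library recovered from the deposited values. Control replicate 3 stood apart: its reads differed from those of the other libraries by a chi-square per degree of freedom of 8.76 to 15.6, against 2.65 to 6.69 for pairs without it. Of 12 Sertoli markers 5 were listed at 0 in every library (Wt1, Fshr, Dmrt1, Shbg and Gata1), so the data do not show the full Sertoli programme. Vim (mean 1272.8 in control and 1203.7 in VC), Inhbb (155.8 and 176.7), Gata4 (19.2 and 21.8) and Sox9 (3.01 and 3.70) were expressed. The rest were lower, with means of at most 0.975. All VC values lay above control for Gata4 and Inhbb, and below it for Vim. Limma called 0 of 5 tested markers, and limma-voom with a minimum of 10 reads called 1 of 6, Inhbb, higher (adjusted p = 0.0201). Of the leukocyte markers, Ptprc, the pan-leukocyte surface phosphatase, reached at most 0.007 and the macrophage marker Adgre1 was listed at 0. The summed value of 10 macrophage markers was 55.7 to 65.9 in control and 61.1 to 71.4 in VC, nearly all of it Cd14, and that of 9 lymphocyte markers was at most 0.584 in any library. Markers of peritubular myoid cells, the contractile cells around the tubules, moved with the groups only in part. Of 5 genes 3 were tested, 3 had a log2 fold change below 0 and 1 fell past the threshold. Among them Tagln overlapped between the groups. Of the 2 not tested, Des had means of 0.604 in control and 0.725 in VC with overlap, and Myh11 reached at most 0.032. The summed value of the 5 genes was 608.6 to 668.0 in control and 391.7 to 401.6 in VC. Nearly all of it was smooth-muscle actin Acta2 (-0.68, limma adjusted p = 0.0111, and 0.00517 to 0.0793 with 1 library left out). By limma-voom with a minimum of 10 reads 2 of 4 of these genes fell, Acta2 and the calponin Cnn1. Lists that can reflect RNA quality differed between the groups as well: 74 of 80 tested ribosomal protein genes had a log2 fold change below 0 (median -0.11, none past the threshold), as did 26 of 32 mitochondrially encoded genes (median -0.12, 2 past it). Over all genes tested, 6467 of 13972 had a log2 fold change below 0. The part that the shifts of these lists had in the results below was not tested.

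Interferon-responsive genes are known to carry short DNA elements before their start, and these are shown here because the genes are defined by that response. The interferon-stimulated response element (ISRE), which Stat2 and Irf9, as parts of a complex, and other interferon regulatory factors bind, was searched as TTTCNNTTTC, and the gamma-activated site (GAS), as TTCNNNGAA, both on either strand, in RefSeq windows (GRCm38.p6) from 250 bases before to 50 bases after the start. A window was at hand for 7 of the 10 genes. The ISRE letters stood in 6 of these 7, against 3.44% of all 32851 windows of that length, and the GAS letters in 3 of 7, against 8.30%. The stretches are printed 5′ to 3′ along each gene with the ISRE letters, or their reverse complement GAAANNGAAA, in capitals, followed by Ifi47, the gene whose window held neither motif.
Irgm1, chr11:48871421-48871465, minus strand: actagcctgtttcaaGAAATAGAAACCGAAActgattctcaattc
Irgm2, chr11:58214898-58214937, plus strand: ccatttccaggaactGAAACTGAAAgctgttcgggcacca
Igtp, chr11:58199507-58199546, plus strand: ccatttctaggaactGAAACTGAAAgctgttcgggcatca
Gbp2, chr3:142620589-142620628, plus strand: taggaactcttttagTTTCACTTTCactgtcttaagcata
Gbp3, chr3:142559984-142560029, plus strand: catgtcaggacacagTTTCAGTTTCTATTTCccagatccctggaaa
Gbp7, chr3:142530268-142530307, plus strand: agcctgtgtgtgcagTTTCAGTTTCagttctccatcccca
Ifi47, chr11:49076487-49076556, plus strand: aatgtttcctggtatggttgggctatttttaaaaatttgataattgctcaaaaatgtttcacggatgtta

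In all 6 genes the ISRE letters lay shortly before the start, the nearest at -15 in Irgm1 and the farthest at -64 in Irgm2, counted in bases from the RefSeq start. Irgm1 and Gbp3 each held 2 copies that overlap by 4 bases. The stretches of Irgm2 and Igtp, neighbours on chromosome 11, were the same at 38 of 40 bases. In the other lists the ISRE letters stood in 7 of the 10 further Mx, GBP and IRG genes with a window and in 0 of 10 dynamin-superfamily GTPases that are not known for interferon induction. Of the 7, the IRG-family model 9930111J21Rik1 held them after the start, at 26 to 35. They stood in 1 of 10 interferon ligands and receptors and 2 of 10 kinases and transcription factors of the pathway. In its brakes they stood in 1 of 7, in autophagy genes in 0 of 7 and in defence partners in 1 of 7. A match is a run of letters and not a measured binding site, and a window without one may belong to another start than the one these cells use.

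**Figure D1:**
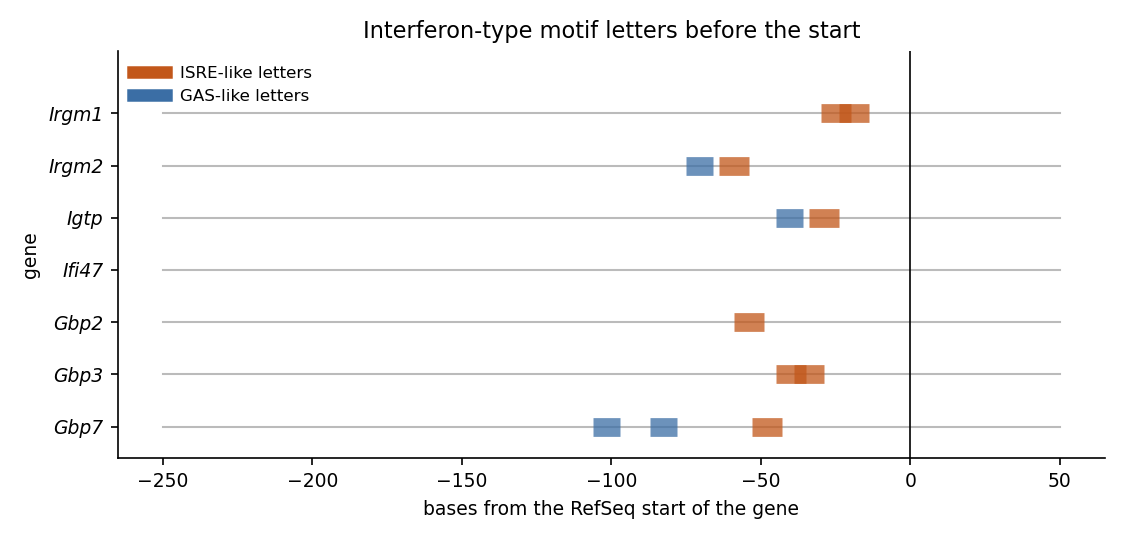
Position of ISRE-like (orange) and GAS-like (blue) letters in the RefSeq window of 7 genes; the x axis is the distance in bases from the start and each grey line is 1 window. The ISRE-like letters of 6 genes lie between -64 and -15, and the Ifi47 window holds neither motif.

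Irgm1 was higher in VC and was the 1 gene of the 10 to pass the test. Gbp3 and Gbp2 had larger fold changes and missed the threshold, Irgm2 had a ratio of means of 2.07 at a low level without passing it, and Igtp and Ifi47 overlapped between the groups. Mx1, Mx2, Gbp7 and Iigp1 lay below the expression filter. Summed over the 10 genes, the values were 19.7, 20.2 and 21.1 in control and 27.1, 27.7 and 30.7 in VC, carried by 589 to 657 reads per control library and 874 to 972 per VC library. Values are per exon length, so they may be compared between genes; in bulk RNA, more cells that express a gene and more RNA per cell cannot be told apart.

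The filter, which asks for 3 libraries with a value of at least 1, passed 6 of the 10 genes. Irgm2 passed only through its 3 VC libraries, and Gbp2 through these and 1 control. Limma called 1 of the 6 (Irgm1, higher), where it called 0.687% of the 13972 genes tested, 0.429% higher and 0.258% lower. The 3 VC values lay above all 3 control values in 6 of the 10 genes (Irgm1, Irgm2, Gbp2, Gbp3, Gbp7 and Iigp1), against 8.75% of the 27484 genes with a value above 0 in at least 1 library and 13.9% of the genes tested (25.6% in either direction). The median log2 fold change of the 6 was 0.485, beside 0.012 over all genes tested, and that of all 10 in a fit without the filter was 0.338, beside 0.0063 over the 27484 genes. These medians describe genes chosen with earlier results known and carry no test.

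**Figure D2:**
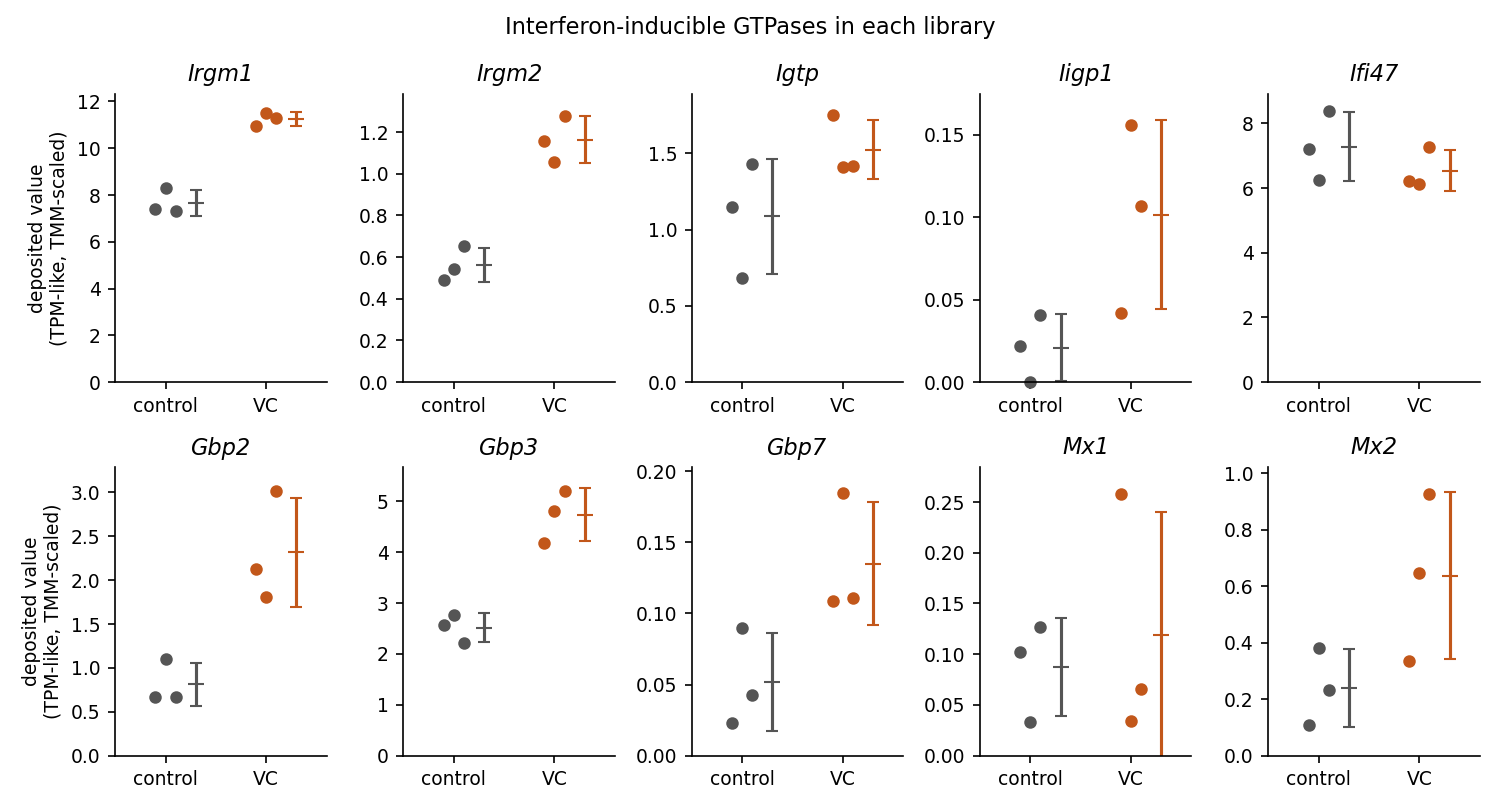
Deposited value (TPM-like, TMM-scaled, linear axis from 0) of each of the 10 genes in 3 control (grey) and 3 VC (orange) libraries; bars are mean ± SD, n = 3, and the lower Mx1 bar is clipped at 0. All VC points lie above all control points for Irgm1, Irgm2, Iigp1, Gbp2, Gbp3 and Gbp7.

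Among the IRG regulators, Irgm1 (ENSMUSG00000046879), which also takes part in autophagy, had values of 7.40, 8.31 and 7.30 in control replicates 1 to 3 and 10.9, 11.5 and 11.3 in VC. The groups did not overlap, and the VC values lay close together. The mean rose from 7.67 ± 0.559 to 11.3 ± 0.280 (SD, n = 3 per group), or by 0.50 log2 units (SE 0.068) at a limma adjusted p of 0.0348, on 333 to 384 reads in control and 515 to 529 in VC. The call was lost when any 1 library was left out, with limma adjusted p from 0.0662 to 0.182, while the log2 fold change stayed between 0.47 and 0.55. Over all genes tested, the fit without control replicate 3 called 83, and each other such fit called at most 1.

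Irgm2 (ENSMUSG00000069874), found on Golgi membranes, was at 0.490, 0.545 and 0.653 in control and 1.16, 1.06 and 1.28 in VC. All VC values were higher, on 14 to 20 reads in control and 30 to 38 in VC. The ratio of the group means was 2.07, and the log2 fold change was 0.47 (SE 0.17, limma adjusted p = 0.235), compressed by the pseudocount of 1 at this level; with a pseudocount of 0.1 it was 0.93 (limma adjusted p = 0.272). Igtp (ENSMUSG00000078853), also called Irgm3 and found on the endoplasmic reticulum, was at 1.15, 0.684 and 1.43 in control and 1.75, 1.41 and 1.41 in VC. Control replicate 3 lay inside the VC range, so the groups overlapped. The difference of 0.29 log2 units (SE 0.19) had a limma adjusted p of 0.478 and was 0.14 without control replicate 2. Igtp and Irgm2 share 162 exon bases on the same strand in the gene models, and how the authors' counting treated such reads is not known.

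Of the IRG effectors, Ifi47 (ENSMUSG00000078920), also called Irgd, was at a level like that of Irgm1 in control, with 7.21, 6.26 and 8.38, and at 6.21, 6.14 and 7.28 in VC. The groups overlapped, and its difference of -0.13 log2 units (SE 0.11; limma adjusted p = 0.599) was the only one below 0 among the 6 tested genes. The ratio of Irgm1 to Ifi47, a pair chosen after its values were seen, was 1.03, 1.33 and 0.871 in control and 1.76, 1.87 and 1.55 in VC. The ratio was higher in every VC library, with a log2 difference of 0.70. An exact two-sided permutation test gave p = 0.1, which 3 against 3 gives whenever the groups do not overlap. For a pair chosen in this way the test adds no support. Ifi47 shares 111 exon bases with the olfactory receptor gene Olfr56 on the same strand, but Olfr56 itself reached at most 0.158. Iigp1 (ENSMUSG00000054072), also called Irga6, was near the floor, with 1, 0 and 2 reads in control and 2, 7 and 5 in VC, values of 0.022, 0 and 0.041 against 0.042, 0.156 and 0.107. The highest control and the lowest VC library each held 2 reads, so the gap between its groups is smaller than 1 read and no fold is given.

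Among the GBP genes, Gbp2 (ENSMUSG00000028270), a lipid-anchored protein that coats pathogen vacuoles, was at 0.667, 1.10 and 0.670 in control and 2.13, 1.81 and 3.01 in VC. It showed the largest ratio of means among the 6 tested genes, 2.85, from 0.812 ± 0.249 to 2.32 ± 0.624 (SD, n = 3 per group), on 13 to 22 reads in control and 35 to 61 in VC. On the log2(value + 1) scale the change was 0.86 (SE 0.20, limma adjusted p = 0.104). A pseudocount of 0.1 made it 1.41 and a pseudocount of 5 made it 0.33, with limma adjusted p of 0.110 in each.

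Gbp3 (ENSMUSG00000028268), a GBP of the same cluster on chromosome 3, was at 2.57, 2.77 and 2.21 in control and 4.18, 4.81 and 5.21 in VC. The groups were well apart, with means of 2.52 ± 0.284 and 4.73 ± 0.520 (SD, n = 3 per group), a ratio of 1.88 and 60 to 72 against 112 to 137 reads. Its log2 fold change of 0.70 (SE 0.12) had a limma adjusted p of 0.0538, just short of the threshold. It passed with libraries scaled to equal totals (limma adjusted p = 0.0428) and with library weights (0.0428). With equal totals, limma called 182 genes higher and 35 lower over all genes, against 60 and 36 in the main fit. Gbp7 (ENSMUSG00000040253), which is known to bind a subunit of the phagocyte NADPH oxidase, was low, at 0.023, 0.090 and 0.043 in control and 0.109, 0.185 and 0.111 in VC. All VC values were higher, but they rest on 1 to 4 reads in control and 5 to 8 in VC. Gbp7 shares 637 exon bases on the same strand with the processed pseudogene Gm43802, which was listed at 0 in every library. How the authors' counting treated reads from these bases is not known.

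The Mx genes were the least expressed family. Mx2 (ENSMUSG00000023341), whose product acts in the cytoplasm, was at 0.107, 0.383 and 0.233 in control and 0.337, 0.646 and 0.928 in VC, on 3 to 11 and 10 to 27 reads. VC replicate 1 lay below control replicate 2, so the groups overlapped. Mx1 (ENSMUSG00000000386), whose product blocks influenza virus in the nucleus, was at 0.102, 0.033 and 0.127 in control and 0.258, 0.034 and 0.066 in VC, on 1 to 8 reads per library. The groups overlapped. RefSeq lists both as transcribed pseudogenes in the reference strain, and many inbred mouse strains are known to carry disrupted copies, so a transcript of either does not show that a working protein is made.

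Tested on the recovered reads, a choice made after the values were seen for the genes below the filter, limma-voom put all 10 genes among 18601 with at least 10 reads over the 6 libraries. It called 3 of the 10, all higher, where it called 3.03% of the genes. With the value filter kept, limma-voom called the same 3 of the 6 tested genes, where it called 3.98% of 13770. With the read minimum they were Irgm1 (log2 fold change 0.55, adjusted p = 0.00106), Gbp3 (0.91, adjusted p = 0.00647) and Gbp2 (1.49, adjusted p = 0.0191). Irgm2 was at 1.03 (SE 0.29, adjusted p = 0.0690) and Mx2 at 1.37 (SE 0.54, adjusted p = 0.211) by limma-voom. The least covered genes were not called by limma-voom: Iigp1 was at 1.91 (SE 0.911, adjusted p = 0.311), Gbp7 at 1.30 (SE 0.684, adjusted p = 0.366) and Mx1 at 0.16 (SE 0.824, adjusted p = 0.956), with at most 8 reads of each in any library.

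**Figure D3:**
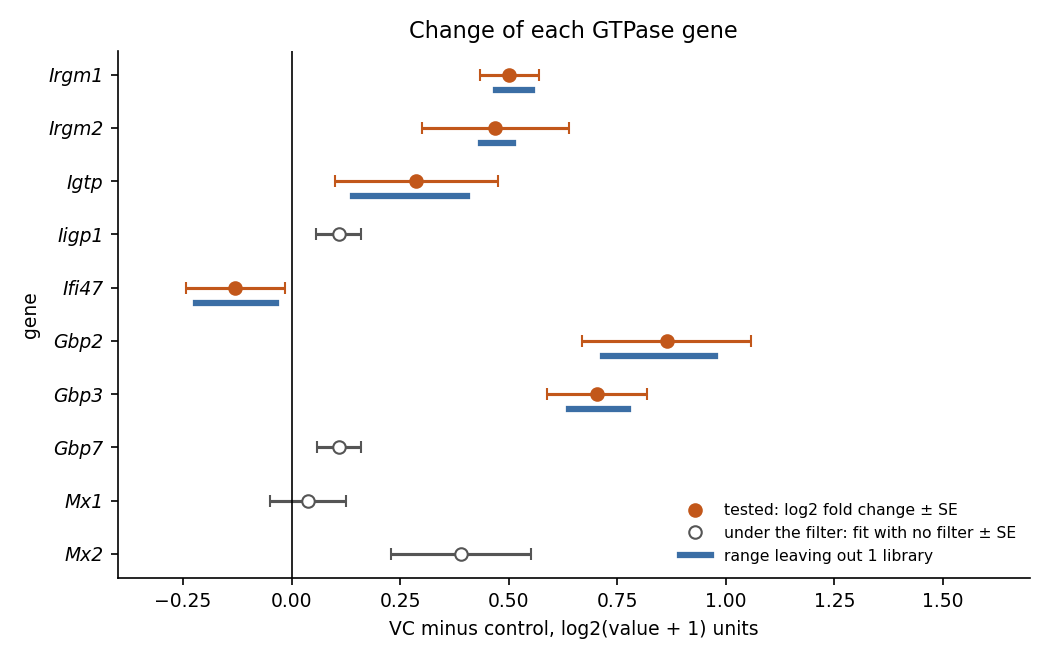
Log2 fold change, VC minus control on log2(value + 1), of each gene ± SE; filled points passed the filter, open points come from the fit without it, and blue bars give the range when 1 library is left out. Gbp2 and Gbp3 lie farthest right at 0.86 and 0.70, and Ifi47 alone lies left of 0.

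In order of control mean, Irgm1 and Ifi47 stood at the top and overlapped with each other. Gbp3 followed, apart from its neighbours. Then came Igtp (1.09 ± 0.377) and Gbp2, which overlapped, and Irgm2 (0.563 ± 0.0829), whose highest control value lay just under the lowest of Gbp2. Mx2 (0.241 ± 0.138) overlapped with Mx1 (0.0873 ± 0.0487), and Gbp7 (0.0520 ± 0.0344) and Iigp1 (0.0210 ± 0.0205) closed the order. In VC Gbp2 (2.32) stood above Igtp (1.52) with no overlap, which was not so in control.

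The genes above the GTPases in the pathway were counted with limma and again with limma-voom at the 10-read minimum. Beside the counts at an unadjusted p under 0.05, here and in the lists below, stand 2410 of the 13972 genes tested by limma. Of 11 interferon ligands and receptors 5 were tested and 0 called by limma, 1 of them with an unadjusted p under 0.05; limma-voom also called 0 of 5. The ligand genes were at or near 0: Ifnb1, interferon beta, was listed at 0 in 4 libraries and at 0.346 and 0.166 in VC replicates 2 and 3, and Ifng, interferon gamma, at 0 except for 0.480 in VC replicate 3. Ifnar1, a subunit of the type I interferon receptor, was at 14.1 ± 0.342 in control and 16.0 ± 0.446 in VC with no overlap (log2 fold change 0.17, limma adjusted p = 0.154). Its partner Ifnar2 (-0.07), the gamma receptor Ifngr1 (0.05) and the shared receptor chain Il10rb (0.04) overlapped between groups.

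Of 12 kinases and transcription factors of the pathway 9 were tested and 0 called by limma, 3 of them with an unadjusted p under 0.05. A log2 fold change above 0 was found in 6 of the 9, beside 7505 of the 13972 genes tested, and the median was 0.097. By limma-voom 3 of 10 were called, all higher: Stat2 (adjusted p = 0.00434), Irf9 (adjusted p = 0.00991) and Irf7 (adjusted p = 0.0445). Stat2 and Irf9, which act together at the ISRE, were both measured. Stat2 was at 9.39, 7.96 and 7.64 in control and 13.0, 10.8 and 12.1 in VC (log2 fold change 0.48, SE 0.096, limma adjusted p = 0.0829) and Irf9 at 7.87 ± 0.578 in control and 10.5 ± 0.431 in VC (SD, n = 3; 0.38, SE 0.072, limma adjusted p = 0.0756). In both genes all VC values lay above all control values.

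Irf7, a factor that amplifies type I interferon, was at 1.03, 1.27 and 0.829 in control and 1.78, 1.86 and 2.24 in VC, with no overlap (log2 fold change 0.54, SE 0.16, limma adjusted p = 0.163). Irf1, a factor that acts downstream of interferon gamma, was at 16.4 ± 0.582 and 17.4 ± 0.530 (0.08, limma adjusted p = 0.486), and the kinase Tyk2 at 6.05 ± 0.624 and 7.03 ± 0.343 (0.19, limma adjusted p = 0.322). Of 9 brakes on the pathway, all tested, 1 rose: Usp18, which removes Isg15 from proteins and shields the type I receptor from Jak1, went from 1.85, 1.80 and 1.90 to 3.93, 3.44 and 3.78 (0.73, SE 0.10, limma adjusted p = 0.0411). Usp18 was also called by limma-voom (adjusted p = 0.00797), but not by limma without the filter (adjusted p = 0.123) or in any of the 6 fits that left out 1 library (0.0688 to 0.209). Of these 6 fits, only that without control replicate 3 called more than 1 gene of all tested. The median of the 9 was 0.05, and no member fell past the threshold.

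**Figure D4:**
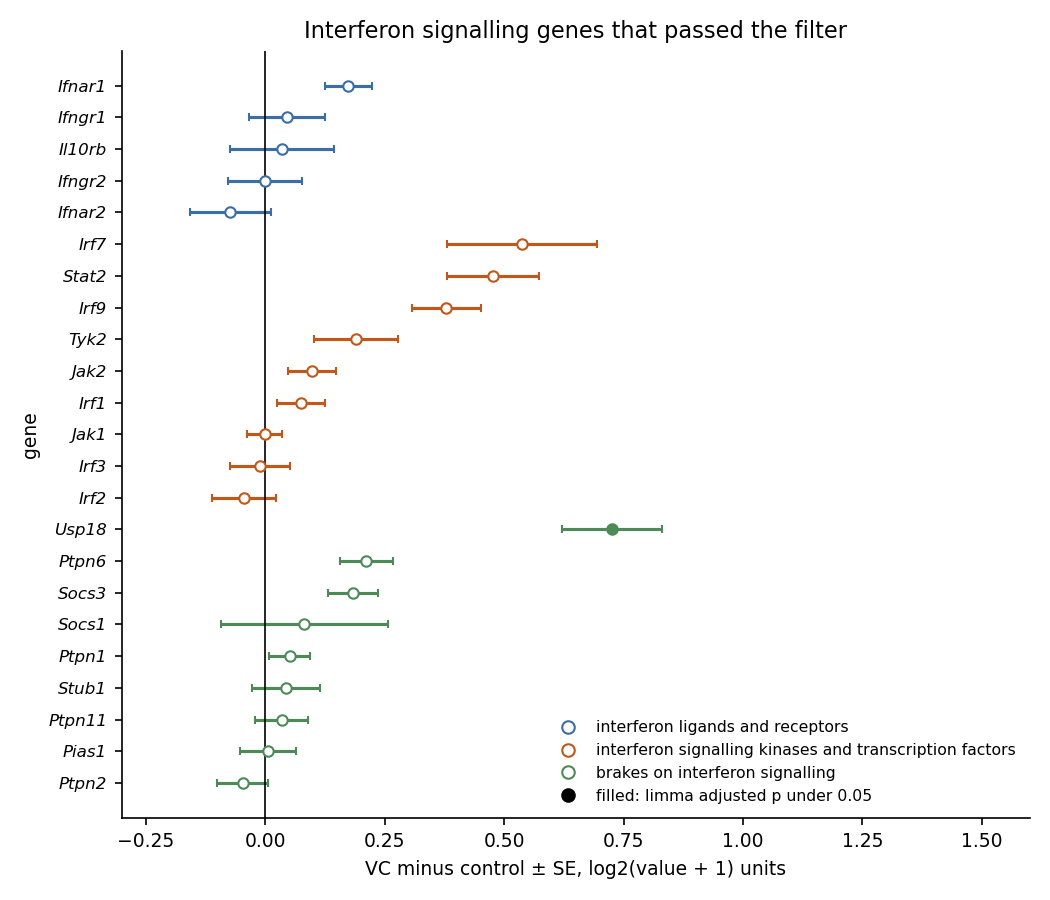
Log2 fold change ± SE (VC minus control on log2(value + 1)) of 23 tested interferon pathway genes, coloured by role; filled points passed limma's adjusted threshold. Usp18 at 0.73 is the 1 filled point, and Irf7, Stat2 and Irf9 lie between 0.38 and 0.54 with open points.

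Most other genes of the Mx, GBP and IRG families were below the filter. Of 21 such genes 6 were tested and 0 called by limma, 1 with an unadjusted p under 0.05, and limma-voom called 0 of 12. The tested genes' median log2 fold change was 0.14. All VC values lay above control in 2 of the 21, a share near the 8.75% of the 27484 genes with a value above 0. These were Irgq, an IRG-like protein (11.2 ± 0.473 and 13.1 ± 1.33, 0.21, limma adjusted p = 0.256), and Gvin1, a very large interferon-inducible GTPase (2.22 ± 0.224 and 2.84 ± 0.0289, 0.26, limma adjusted p = 0.298). The IRG-family models 9930111J21Rik1 (0.27) and Gm12185 (-0.10) overlapped between groups. The near-identical copies Tgtp1 and Tgtp2, chosen after their values were seen, were at most 0.676 in any library, and their reads may be split by the counting. Of 10 dynamin-superfamily GTPases without a known interferon response 8 were tested and 0 called by limma, 2 with an unadjusted p under 0.05 (Opa1, 0.15, and Mfn2, 0.11, both of mitochondrial fusion), with a median of 0.03, and limma-voom called 0 of 10; Dnm1 (0.05) and Dnm1l (-0.03) overlapped.

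**Figure D5:**
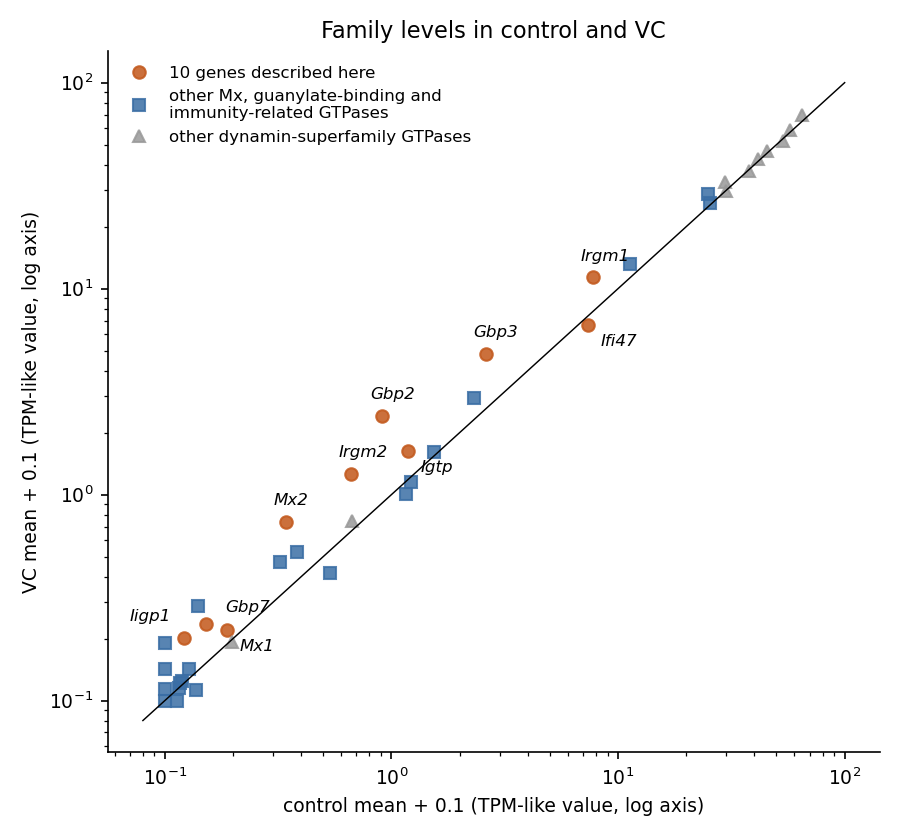
Mean value plus 0.1 in control (x, log axis) against VC (y, log axis) for the 10 genes (orange), 21 further family genes (blue) and 10 other dynamin-superfamily genes (grey); the line marks equal means. Gbp2, Gbp3, Irgm1, Irgm2 and Mx2 lie above the line, Ifi47 lies below it, and the dynamin-superfamily genes lie along it.

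GBP and IRG proteins reach pathogen vacuoles with help from the proteins that conjugate LC3 in autophagy. Of 10 such genes, all tested, 1 fell past the limma threshold and 0 rose past it. The gene that fell was Map1lc3a, an LC3 protein. It went from 71.9, 66.6 and 61.7 in control to 48.3, 47.5 and 49.5 in VC (log2 fold change -0.45, SE 0.059, limma adjusted p = 0.0348). Map1lc3a was also called by limma-voom (adjusted p = 0.00318), but not by limma without the filter (adjusted p = 0.0806), and of the 6 fits that left out 1 library only the fit without control replicate 3 called it (0.0302, against up to 0.155). The list's median was 0.04. Of 8 partners in defence within the cell 4 were tested and 0 called by limma, 2 with an unadjusted p under 0.05. By limma-voom 2 of 6 were called, both higher: Rnf213 (adjusted p = 0.00494) and Sqstm1 (adjusted p = 0.0163). Rnf213, a giant ubiquitin ligase that marks bacteria, was at 18.8, 18.4 and 12.3 in control and 23.3, 25.9 and 25.3 in VC (0.58, SE 0.15, limma adjusted p = 0.133), with control replicate 3 the lowest. The autophagy receptor Sqstm1 was at 249.8 ± 9.43 and 285.5 ± 6.93 (0.19, SE 0.040, limma adjusted p = 0.0872), while Trim21 (0.26), an intracellular antibody receptor, and Gsdmd (0.05), the pore-forming gasdermin, overlapped between the groups.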

How the data were processed

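RNA from TM4 cells was extracted with Trizol and made into TruSeq libraries (strand not stated), per the labels' protocols. HISAT2 and build GRCm39 are named in the submitters' processing notes; which tool counted reads, with which annotation, is not given in the sources used here. What the authors deposited is a signal, never negative and with 3 decimals, that acts as a transcripts-per-million value times 1 factor per library, and the table's name mentions TMM, a cross-library scaling. Symbols and exon lengths came from GENCODE M21 (build GRCm38), which gave a symbol to 52081 of 55414 identifiers.

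A gene was kept (13972 were) where 3 or more libraries had a value of at least 1, and VC was compared with control on log2(value + 1) in limma 3.58.1 (R 4.3.3) with an intensity trend, two-sided, Benjamini-Hochberg adjusted over all these genes, threshold 0.05. Value times exon length was divided by the worth of 1 read, fitted for each library (120.5 to 129.7). The result was a whole number, within 0.1, for 98.71% to 98.87% of the values up to 1000 reads in each library. Very short genes, and values whose rounding error was not small beside 1 read, were left out of this share. The reads recovered in this way were used for depth and for limma-voom alternatives only. The procedure was also run on simulated counts, with an outcome not given here. All simulated libraries had the same spread, and changes were placed only in better expressed genes. The run therefore does not cover a library that stands apart, as control replicate 3 does, or the low genes. The 10 genes and the gene lists were chosen with earlier results of these data known. All 10 genes are named; from each list, genes past the threshold or otherwise up to 4 with the smallest unadjusted p, and 7 pathway genes whatever their test (Stat2, Irf1, Irf9, Ifnb1, Ifng, Ifnar1 and Ifngr1). Genes named outside this rule are marked as chosen after their values were seen. 1 further gene was left out of its list and is not reported here.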

Additional observations from a re-analysis of the deposited data

How the results depend on the processing

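Over all alternatives in which they could be tested, Gbp2, Gbp3, Irgm1, Irgm2 and Igtp kept a log2 fold change above 0 and Ifi47 one below 0. Irgm2 could not be tested when a VC library was left out, and only Irgm1 and Ifi47 passed a filter of 5. Irgm1 was called in 9 of 18 alternatives. The number of the 10 genes called, 1 as reported, was 0 by limma without the filter (4 with an unadjusted p under 0.05), 0 without the intensity trend (4) and 0 in each fit that left out 1 library (3 to 4). It was 2 with equal totals, 2 with library weights and 3 by limma-voom on recovered reads, with the value filter or with the minimum of 10 reads added after the data were seen. Over all genes, an unadjusted p under 0.05 was met by 2838 of 27484 without the filter and 2181 of 13972 without the trend. With 1 library left out, 1607 to 2478 genes met it. The median log2 fold change of the tested genes, 0.485, was 0.717 with a pseudocount of 0.1, 0.239 with a pseudocount of 5, 0.338 without the filter, 0.186 with a filter of 5 (2 genes), 0.730 by limma-voom and 0.967 by limma-voom with the read minimum (10 genes).

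Over all genes, the 96 calls became 30 without the filter, 183 with a filter of 5, 217 with equal totals (182 higher and 35 lower, against 60 and 36), 6 without the trend, 254 with library weights, 548 by limma-voom and 563 with the read minimum. Leaving out 1 library gave 0 to 83, with 83 without control replicate 3 and at most 1 without any other. With the replicate number as a replicate block, limma called 0 genes and 0 of the 10 (2039 and 3 with an unadjusted p under 0.05). Deviations of same-numbered libraries correlated at -0.019, -0.011 and 0.005, and those of other pairs at -0.033 to 0.047. With 3 libraries per group these correlations cannot decide whether same-numbered samples were handled together, and the labels do not say. Except for fits with fewer genes or samples, the cause was not tested. Reads limit the low genes: Mx1, Gbp7 and Iigp1 had at most 8 in any library.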

Other observations

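Some values of neighbouring family genes, picked after they were seen, went with 1 control library. Igtp and the IRG gene Gm12250 were each lowest in control replicate 2, at 0.684 and 0.790, against 1.15 to 1.43 and 1.72 to 1.80 in the other controls. Reads were few, with 18, 11 and 24 of Igtp and 17, 8 and 19 of Gm12250 in control replicates 1 to 3. The IRG-family models 9930111J21Rik1 and 9930111J21Rik2 were lowest in control replicate 3, at 14.4 and 19.8. The other controls were at 30.6 and 29.7 for 9930111J21Rik1 and at 29.0 and 27.1 for 9930111J21Rik2, and the VC values were 27.6 to 29.8 and 24.9 to 26.6. Of the GBP genes outside the 10, Gbp10 and Gbp11 were listed at 0 in all 3 controls and in VC replicate 2, and Gbp9 was at 0.025, 0.097 and 0 in control and 0.165, 0.301 and 0.096 in VC. Gbp10 and Gbp11 had at most 3 and 5 reads in any library. Gbp9 had 1, 4 and 0 reads in control and 7, 12 and 4 in VC, and its groups overlapped.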
